A study of Oryctolagus cuniculus with 4 samples.

Results

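MMRN1 and a group of genes known to mark lymphatic endothelium were followed in single-cell RNA sequencing libraries of rabbit ear hypertrophic scar (HS). The group was a list of 7 symbols, MMRN1, LYVE1, PROX1, FLT4, PDPN, RELN and STAB2. MMRN1 was selected on its higher relative expression after treatment in these same libraries, and the others because they are established lymphatic genes. Of the 7, 5 had a row in the table of 13913 genes. FLT4 and PDPN were not analysed here. The comparison had 2 groups of 2 libraries, all from WT rabbits. The HS group received no treatment. The drug-loaded MNs group received microneedles (MNs) loaded with a prodrug of a 5-fluorouracil derivative, 1 time per week for 3 weeks. In both groups the scars had been raised by surgical wounding of the ventral ear, and cells were dissociated from the epidermis and dermis of the ventral side. The labels gave neither strain nor age. The study used female rabbits and gives an age range for them. No library with drug-free MNs was used here, so effects of the needles and of the drug cannot be told apart. The study calls the libraries of a group biologically independent samples.

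Lymphatic capillaries are thin-walled vessels that drain fluid and immune cells from the dermis. Their endothelium is set apart from blood endothelium by the transcription factor PROX1, which switches on and maintains the lymphatic programme, and it grows in response to VEGFC acting through the receptor that FLT4 encodes. LYVE1 is a hyaluronan receptor on the surface of lymphatic capillaries and also of some tissue macrophages. MMRN1 encodes multimerin 1, a large secreted glycoprotein made by endothelial cells and stored in platelets, and in skin it is a common marker of lymphatic endothelium. RELN encodes the secreted glycoprotein reelin, which lymphatic endothelium releases. STAB2 is a scavenger receptor for hyaluronan that is best known from the sinusoids of liver, spleen and lymph node.

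The deposited table gave 1 value per gene and library. Values were rescaled so that each library summed to 1000000, and 1 part of it is called 1 unit below. Because cells of a library were combined, more lymphatic cells and more RNA per lymphatic cell cannot be told apart. Each library had values above 0 for 11844 to 12059 genes, and sequencing depth was unknown. HS replicate 1 stood apart on the first principal component (-37.2, against 0.947 for HS replicate 2 and 17.9 and 18.3 for the drug-loaded MNs libraries). LYVE1, PROX1, RELN and the median of the lymphatic growth signals are therefore also given without it. Genes of the other lists are not, and may depend on it. Of 9348 tested genes, 4 (0.0428%) passed the adjusted threshold of 0.05 in limma, and none of the lymphatic genes was among them. Over all tested genes, log2 fold changes had a median of 0.12.

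The 4 tested lymphatic genes all stood higher in the drug-loaded MNs libraries, but none of the 3 that could be tested apart from MMRN1 passed in the fit across all genes. LYVE1, PROX1 and RELN had both treated libraries above both HS libraries, which 26.6% of tested genes also showed; MMRN1 did so too, but it was selected for that difference. Log2 fold changes of these 4 genes, on the log2(value + 1) scale, ran from 0.89 to 1.91. STAB2 was near the bottom of the measured range, and its groups overlapped.

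**Figure D1:**
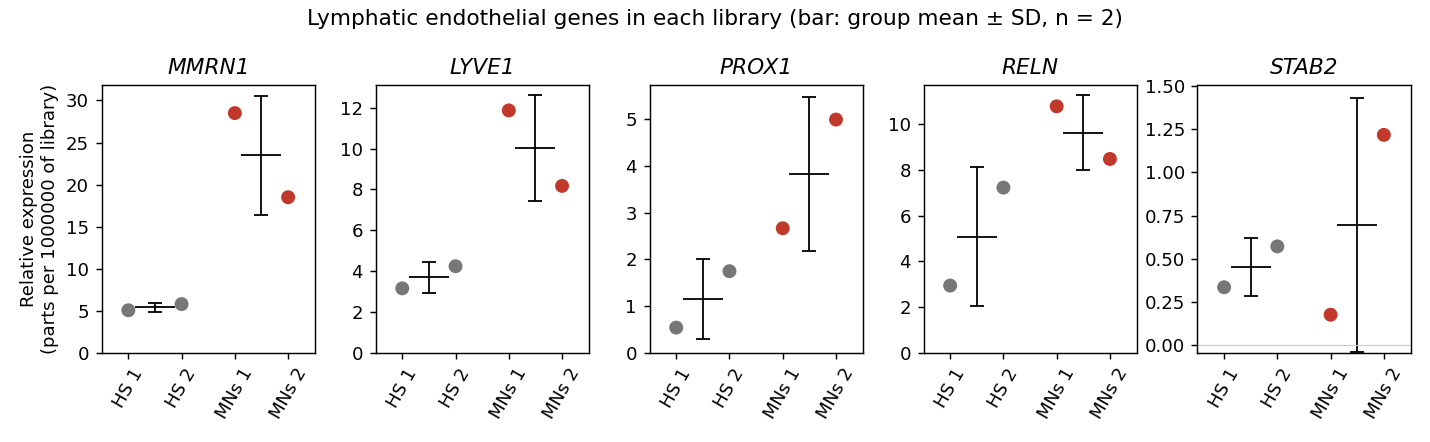
Relative expression, in parts per 1000000 of the library total, of each lymphatic gene in the 2 HS libraries (grey) and the 2 drug-loaded MNs libraries (red), with group means and SD in black (n = 2). Axes differ between genes. MMRN1 lay at 5.04 and 5.78 units in HS and at 28.5 and 18.5 units in drug-loaded MNs, and only STAB2 had overlapping groups.

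MMRN1 (ENSOCUG00000006098) measured 5.04 units in HS replicate 1 and 5.78 in HS replicate 2, against 28.5 in drug-loaded MNs replicate 1 and 18.5 in drug-loaded MNs replicate 2. The HS libraries lay close together, the treated libraries differed by 1.54 times, and the groups were well apart, with the lower treated library 3.20 times the higher HS library. The HS mean was 5.41 ± 0.522 units and the drug-loaded MNs mean 23.5 ± 7.08 units (SD, n = 2 per group), a ratio of 4.34 and a log2 fold change of 1.91. Because MMRN1 was chosen for this difference, the value is a description and no test is attached to it. Among tested genes, 22 (0.235%), MMRN1 included, had a log2 fold change at least as high.

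PROX1 (ENSOCUG00000008274), the factor that defines lymphatic identity, measured 0.536 and 1.74 units in HS, with drug-loaded MNs at 2.66 and 4.99. The groups did not overlap, but the HS libraries differed from each other by 3.26 times, and all values were low. The log2 fold change was 1.19 (SE 0.41, 95% interval 0.24 to 2.14), with a limma adjusted p of 0.437. Without HS replicate 1, in which PROX1 was lowest, it was 0.77 (limma, adjusted p = 0.689, range over alternatives 0.0602 to 0.721).

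LYVE1 (ENSOCUG00000009659) measured 3.15 and 4.23 units in HS, against 11.9 and 8.17 with drug-loaded MNs. As with MMRN1, both HS libraries were low, drug-loaded MNs replicate 1 was the highest, and the groups did not overlap. The ratio of group means was 2.71, and the log2 fold change was 1.22 (SE 0.31, 95% interval 0.49 to 1.95). Its limma adjusted p was 0.340, so LYVE1 did not pass over all genes. Without HS replicate 1 the log2 fold change was 1.05.

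RELN (ENSOCUG00000009050) measured 2.93 and 7.22 units in HS, against 10.8 and 8.48 with drug-loaded MNs. HS replicate 2 came close to drug-loaded MNs replicate 2, and the lower treated library was only 1.17 times the higher HS library. The log2 fold change was 0.89 (SE 0.39, 95% interval -0.03 to 1.81), with a limma adjusted p of 0.599. Without HS replicate 1 it was 0.36 (limma, adjusted p = 0.853, range over alternatives 0.229 to 1).

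STAB2 (ENSOCUG00000016254) measured 0.336 and 0.572 units in HS, against 0.177 and 1.22 with drug-loaded MNs. The treated libraries held both the lowest and the highest value. Its mean over all libraries, 0.575 units, was below the minimum of 1 unit set for testing, so it was not tested, and its log2 fold change of 0.16 is given as a value.

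Against these values, lymphatic genes outside the group were taken from a list of 22 symbols. Of the 15 in the table, ACKR2, NTS and SCN3B lay under the minimum of 1 unit, and 12 were tested. PKHD1L1 (log2 fold change 1.16) had both HS libraries under 1 unit and reached the minimum through the treated libraries, so the counts here leave it out. In 10 of the other 11 the log2 fold change was above 0, against 64.6% of all tested genes, and in 8 the groups did not overlap, with the treated libraries higher, against 26.6% of all tested genes. The median was 0.63, against 0.12 over all tested genes, and 0.79 with PKHD1L1. None passed the adjusted threshold, and 6 of the 11 had an unadjusted p under 0.05 in limma and a higher level in drug-loaded MNs, against 7.26% of tested genes. Under median ratio scaling that background was 5.29%. The count of 6 among the 11 genes is not given under that scaling, so only 7.26% serves as its background.

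CCL21, the chemokine by which lymphatic endothelium draws dendritic cells and T cells, measured 63.2 and 48.3 units in HS, against 212 and 117 with drug-loaded MNs. Drug-loaded MNs replicate 1 was highest, as in MMRN1, whereas PROX1 and TFPI were highest in drug-loaded MNs replicate 2. The log2 fold change of CCL21 was 1.50 (SE 0.32, adjusted p 0.308 in limma). TFPI, an inhibitor of the tissue factor pathway of coagulation made by endothelium, measured 36.5 and 45.1 units in HS, against 71.8 and 108 with drug-loaded MNs, a log2 fold change of 1.10 (SE 0.27, adjusted p 0.334 in limma). Some genes of the list are also expressed outside lymphatic vessels. CD36 and FABP4 are known from adipocytes and blood capillaries, and MRC1 was also on the macrophage list. SEMA3D was the single tested gene of the list with a value below 0, at -0.17. NTS, which was under the minimum and not tested, stood at -0.42 with overlapping groups. CD36, FABP4, MRC1, NTS, PKHD1L1 and SEMA3D were singled out after their values were seen.

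**Figure D2:**
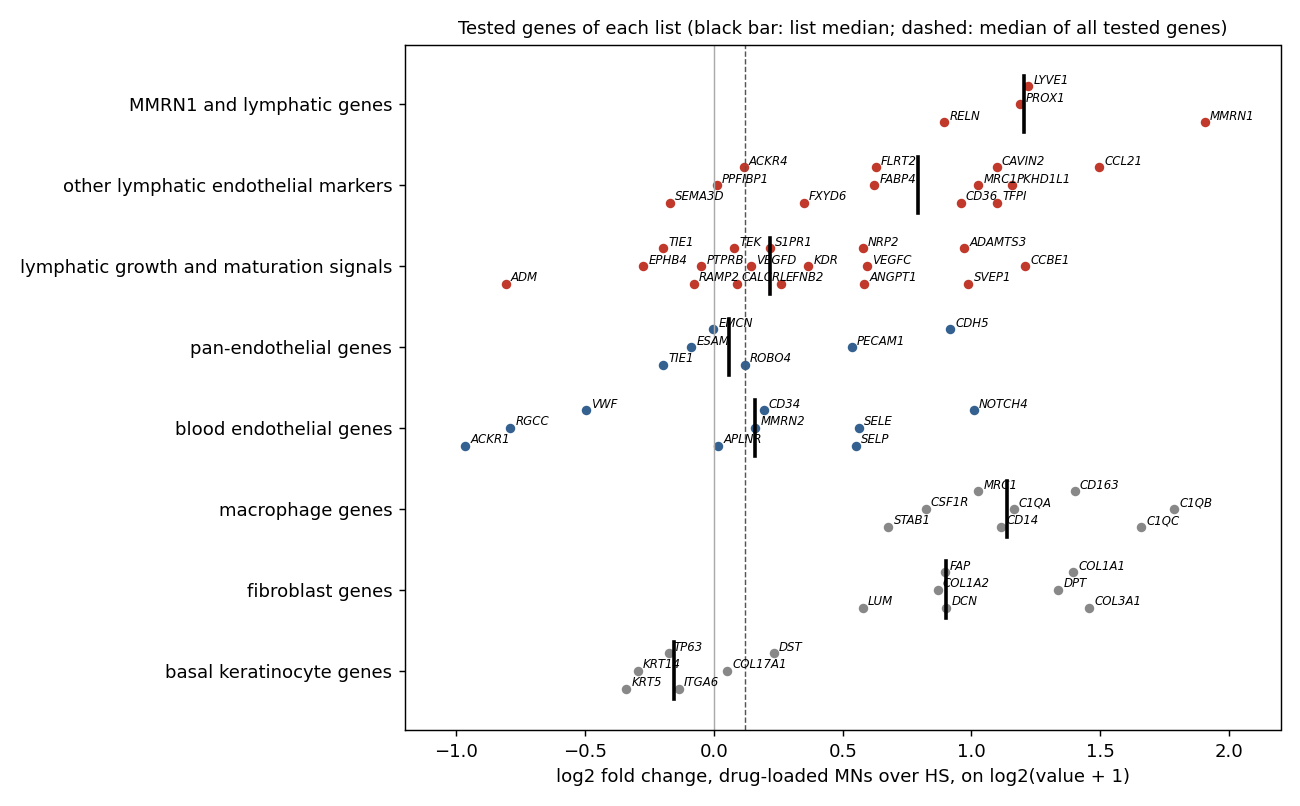
Log2 fold change of drug-loaded MNs over HS, on the log2(value + 1) scale, for each tested gene of 8 lists (1 row per list, 1 point per gene, shifted up or down only to keep the names apart). Black bars mark list medians, and the dashed line marks the median of all tested genes (0.12). Medians ran from 1.21 for MMRN1 and the lymphatic genes (1.19 without MMRN1, which was selected for its rise) to -0.16 for basal keratinocyte genes. Other lymphatic markers stood at 0.79 (PKHD1L1 included) and pan-endothelial genes at 0.06.

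The signals that make lymphatic vessels grow and mature did not move together. Of 17 tested genes of this list, 12 had a log2 fold change above 0 and 5 below, with a median of 0.22. Over all tested genes, 64.6% were above 0. The groups did not overlap in 6 genes that were higher and in 3 that were lower, where 26.6% and 11.2% of all tested genes did the same. The median was 0.47 without HS replicate 2 and 0.03 without HS replicate 1.

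None of these genes passed the adjusted threshold. CCBE1, a secreted protein that helps the protease ADAMTS3 to activate VEGFC, measured 7.41 and 9.38 units in HS, against 24.4 and 17.3 with drug-loaded MNs. Its log2 fold change was 1.21 (SE 0.29, adjusted p 0.316 in limma). ADAMTS3 itself had a log2 fold change of 0.97 (adjusted p 0.428 in limma), with groups that did not overlap. VEGFC measured 6.90 and 5.73 units in HS, against 14.6 and 6.80 with drug-loaded MNs, where replicate 2 lay within the HS range. SVEP1, an extracellular matrix protein needed for lymphatic sprouting, measured 54.6 and 77.8 units in HS, against 167 and 102 with drug-loaded MNs, a log2 fold change of 0.99 (SE 0.31, adjusted p 0.411 in limma). These genes are not restricted to endothelium, and fibroblasts are a known source of several of them. In the same libraries all 7 tested fibroblast genes had higher treated libraries without overlap, against 26.6% of all tested genes, though none passed the adjusted threshold, with a median of 0.90 and a summed level of 22660 to 23100 units in HS and 44900 to 48850 in drug-loaded MNs. The part of fibroblasts in the values of CCBE1, ADAMTS3 and SVEP1 was not tested.

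NRP2, a co-receptor for VEGFC, had a log2 fold change of 0.58 (adjusted p 0.672 in limma) and KDR, a VEGF receptor of blood and lymphatic endothelium, 0.37 (adjusted p 0.822 in limma). ADM, which encodes the peptide adrenomedullin that lymphatic endothelium senses through CALCRL and RAMP2, was lower in drug-loaded MNs, at 213 and 222 units against 422 and 343 in HS, a log2 fold change of -0.81 (adjusted p 0.346 in limma). The receptor genes stood at 0.09 for CALCRL and -0.08 for RAMP2, both with overlapping groups. ADAMTS3, VEGFC, NRP2, KDR, ADM, CALCRL and RAMP2 were chosen for their roles after their values were seen. Of 15 transcription factors listed for lymphatic development, 2 had a row. GATA2 measured 35.4 and 21.0 units in HS, against 28.1 and 81.8 with drug-loaded MNs (log2 fold change 0.79, adjusted p 0.743 in limma), and FOXP2 had a log2 fold change of -0.47 (adjusted p 0.796 in limma). Both had overlapping groups.

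Genes shared by blood and lymphatic endothelium had summed levels that overlapped between the groups. Of 6 tested pan-endothelial genes, 3 had a log2 fold change above 0 and 3 below, with a median of 0.06, and their summed level was 78.9 and 92.6 units in HS, against 87.7 and 110 with drug-loaded MNs. CDH5, the cadherin of endothelial junctions, was higher in both treated libraries, at 6.42 and 8.58 units against 2.76 and 4.30 (log2 fold change 0.92, adjusted p 0.445 in limma). PECAM1, an adhesion molecule of all endothelium, had a log2 fold change of 0.54 (adjusted p 0.716 in limma).

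Genes used to mark blood endothelium went both ways. The 9 tested genes had a median of 0.16, with 6 above 0 and 3 below, and their summed level was 479 and 366 units in HS, against 302 and 337 with drug-loaded MNs. ACKR1, a chemokine receptor of venules, measured 55.5 and 36.9 units in HS, against 18.4 and 27.9 with drug-loaded MNs, a log2 fold change of -0.97 (SE 0.31, adjusted p 0.417 in limma). NOTCH4, an endothelial Notch receptor, went the other way, with 10.4 and 7.29 units in HS, against 18.4 and 18.8 with drug-loaded MNs (log2 fold change 1.01, SE 0.28, adjusted p 0.352 in limma). The sign of the medians of the pan-endothelial and blood endothelial lists depended on scaling: under quantile normalization they were -0.14 and -0.05.

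To set the lymphatic genes against the endothelium of the same library, each was divided by the summed pan-endothelial level. These log2 ratios, and those to other sums, were taken without adding 1 to the values. Their differences are therefore not on the log2(value + 1) scale of the fold changes above. On the plain log2 scale the summed pan-endothelial level was itself 0.20 higher in drug-loaded MNs, so dividing by it lowered each difference. In HS the log2 ratio of MMRN1 was -3.97 and -4.00, and with drug-loaded MNs it was -1.62 and -2.57, which is 1.89 higher on average (pooled SD 0.477). The difference was 1.23 (pooled SD 0.444) for LYVE1 and 1.71 (pooled SD 0.790) for PROX1, and in both genes the groups did not overlap. The groups of MMRN1 did not overlap either, but MMRN1 was selected for its difference in these libraries. How many of all genes separate on this ratio was not counted. For RELN the difference was 0.85 (pooled SD 0.632), and HS replicate 2 overlapped with the treated libraries. For STAB2 it was -0.12 (pooled SD 1.25). With 2 libraries per group, the smallest two-sided p of an exact permutation test is 0.333, so none was run.

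**Figure D3:**
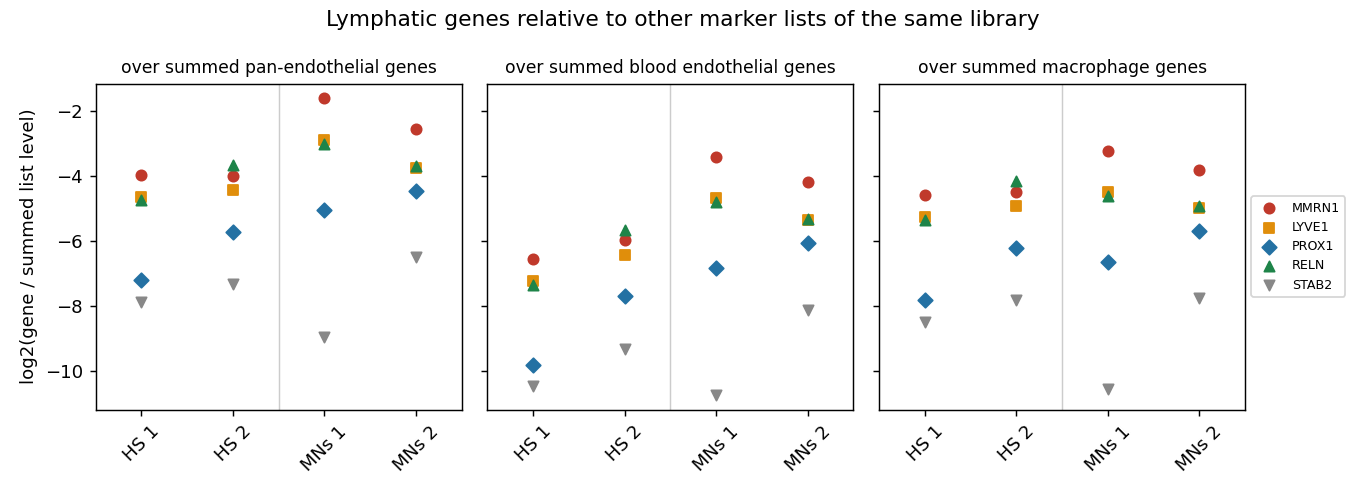
Log2 ratio of each lymphatic gene to the summed level of pan-endothelial (left), blood endothelial (middle) and macrophage genes (right) of the same library, 1 point per gene and library. MMRN1, which was selected for its rise, stood higher in both treated libraries in all 3 panels, by 1.89, 2.48 and 1.01 on average. LYVE1 overlapped between groups in the macrophage panel.

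Macrophage genes moved in the same direction as LYVE1. C1QB (log2 fold change 1.79), whose HS mean was under 1 unit, reached the minimum through the treated libraries. The other 7 tested macrophage genes were higher in both treated libraries, against 26.6% of all tested genes, with a median of 1.11 (1.14 with C1QB), and none of them passed the adjusted threshold. The summed level of all 8 was 121 and 130 units in HS, against 267 and 261 with drug-loaded MNs. None was at 0 in any library, and the lowest value was that of C1QB in HS replicate 1, at 0.0650 units. CD163, a scavenger receptor of tissue macrophages, measured 10.6 and 6.72 units in HS, against 23.6 and 24.5 with drug-loaded MNs (log2 fold change 1.40, SE 0.29, adjusted p 0.296 in limma), and C1QC, a chain of complement C1q, had a log2 fold change of 1.66 (SE 0.46, adjusted p 0.352 in limma). Relative to the macrophage sum, the log2 ratio of LYVE1 differed by 0.35 (pooled SD 0.299) with overlapping groups, and that of PROX1 by 0.84 (pooled SD 0.927) and of RELN by -0.03 (pooled SD 0.617), also with overlap. MMRN1, which was selected for its rise, differed by 1.01 (pooled SD 0.298) without overlap. The macrophage sum included MRC1, also on the lymphatic list, at 39.3 and 48.7 units in HS and 85.3 and 95.4 with drug-loaded MNs. It is therefore not a sum of genes listed for macrophages alone. The part of macrophages in the LYVE1 values was not tested.

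Platelets are the other known store of multimerin 1. Of 12 platelet and megakaryocyte genes listed, 7 had a row. Of these, GP9, GP1BA, CLEC1B and TREML1 had no value above 0.621 units in any library, and ITGA2B, SELP and F5 were tested. GP9 was lower in drug-loaded MNs (0 and 0.162 units) than in HS (0.621 and 0.574). ITGA2B measured 9.74 to 10.6 units over the 4 libraries, with a log2 fold change of -0.05. SELP, an adhesion molecule of platelets and endothelium, and F5, coagulation factor V, had log2 fold changes of 0.55 (adjusted p 0.664 in limma) and 0.45 (adjusted p 0.796 in limma).

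Within the protein family of MMRN1, made of the EMILINs and multimerins of the extracellular matrix, 4 of 5 genes had a row. EMILIN2 measured 11.1 and 14.1 units in HS, against 21.0 and 28.5 with drug-loaded MNs (log2 fold change 0.92, SE 0.28, adjusted p 0.404 in limma). EMILIN1, an elastic fibre protein that also anchors lymphatic vessels, measured 39.0 and 23.5 units in HS, against 58.1 and 54.4 with drug-loaded MNs (log2 fold change 0.87, SE 0.29, adjusted p 0.428 in limma). MMRN2, the multimerin of blood endothelium, measured 1.07 and 3.63 units in HS, against 1.73 and 3.39 with drug-loaded MNs. Its groups overlapped, and its log2 fold change was 0.16.

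The genes around LYVE1 and RELN were looked at as well. Of 7 tested hyaluronan receptors and enzymes other than LYVE1 and STAB2, 6 had a log2 fold change above 0, against 64.6% of all tested genes. Their median was 0.39. In 2 genes the treated libraries were higher without overlap, and in 1 they were lower, against 26.6% and 11.2% of all tested genes. HAS2, a hyaluronan synthase, measured 29.2 and 39.0 units in HS, against 64.3 and 60.6 with drug-loaded MNs, a log2 fold change of 0.87 (SE 0.24, adjusted p 0.352 in limma), and HMMR, a hyaluronan-binding protein of dividing cells, had one of 0.83 with overlapping groups (adjusted p 0.780 in limma). Among the reelin receptors and adaptors, the adaptor DAB2 had a log2 fold change of 0.59 (adjusted p 0.501 in limma) and the receptor VLDLR one of 0.27 (adjusted p 0.861 in limma).

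Lists of the remaining cell types gave the setting. The 5 tested mural cell genes had a median of 0.50, with ACTA2, the smooth muscle actin, at 0.71 (adjusted p 0.554 in limma) and PDGFRB, the PDGF receptor of pericytes and fibroblasts, at 0.60 (adjusted p 0.485 in limma). The 6 tested basal keratinocyte genes had a median of -0.16, with overlapping groups in all 6 and with KRT5 at -0.34 (adjusted p 0.889 in limma) and KRT14 at -0.30 (adjusted p 0.878 in limma), the keratin pair of the basal layer. In the fibroblast list COL3A1 and COL1A1, both chains of fibrillar collagens, had log2 fold changes of 1.46 (adjusted p 0.264 in limma) and 1.39 (adjusted p 0.316 in limma).

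The genes whose pattern lay nearest to that of MMRN1 were found by the Euclidean distance between log2(value + 1) profiles over the 4 libraries, each centred on its own mean, among 6453 other genes with a symbol and a mean of at least 5 units. PDGFD, a ligand of PDGF receptor beta, was nearest, at a distance of 0.0923. It measured 9.53 and 10.9 units in HS, against 48.6 and 34.8 with drug-loaded MNs. CNKSR2 (0.325), NDRG1 (0.349), C4BPA (0.479) and PRR16 (0.494) followed. All 5 were low in both HS libraries and highest in drug-loaded MNs replicate 1. LYVE1 ranked 28 at 0.699 and RELN 269 at 1.21, and PROX1 was below the level required. With 4 libraries many genes can share such an order, and the distances are a description without a test.

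**Figure D4:**
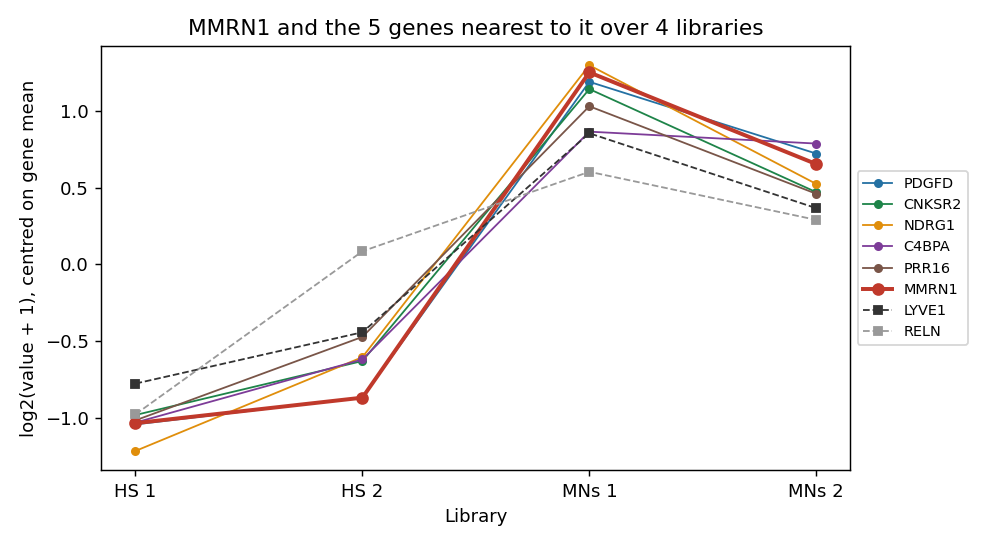
Log2(value + 1) centred on each gene's mean over the 4 libraries, for MMRN1 (thick red), the 5 genes nearest to it and, dashed, LYVE1 and RELN; lines only link the points of a gene. PDGFD follows MMRN1 most closely (distance 0.0923), while RELN departs in HS replicate 2.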

How the data were processed

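The authors used Cell Ranger (version 2.1.1 in the submitters' processing notes) to count unique molecular identifiers, followed by Seurat. Those notes name the build mm10, whereas the gene identifiers are rabbit Ensembl ones. The deposited signal values, 1 per gene and library, summed to 10000 in each library although the table is named for FPKM, and no gene length correction is assumed. The study mentions a correction for technical differences between samples, and whether these values passed through it was not stated. Only 18.7% to 21.8% of low values were within 0.1 of a whole multiple of the smallest value, up to 20 multiples, so counts were not recovered, no count model was run and depth stayed unknown. Cell filters were the authors'. How doublets were treated is not given in the sources used here.

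Values were rescaled to 1000000 per library, and a gene was tested where its mean reached 1 unit. The limma fit used lmFit and eBayes (trend) on log2(value + 1), in limma 3.58.1 under R 4.3.3 without covariates, two-sided, with Benjamini-Hochberg adjustment over all tested genes and a threshold of 0.05. The fit was tried on data simulated from its own variance model, which cannot show how it handles a library that stands apart. The lymphatic genes and all lists were chosen with earlier results of these data known. The text names the lymphatic genes, of each list every gene past the threshold or otherwise the 2 genes with the largest absolute log2 fold change and a mean of at least 5 units, and the 5 genes nearest to MMRN1. Other genes are said to be chosen after their values were seen, or are named as parts of their list. Symbols were taken from the table, which gave none for 3706 genes. Alternatives were other scalings, pseudocounts, filters and variance prior, a pan-endothelial denominator, 1 library left out in turn, and a block on the replicate number.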

Additional observations from a re-analysis of the deposited data

How the results depend on the processing

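The 4 calls over all genes became 0 without a filter on low values, with a pseudocount of 5 and under quantile normalization or median ratio scaling, and 1 with eBayes without trend. It was 0 to 75 with 1 library left out: 0 without HS replicate 1, 3 without HS replicate 2, and, on the treated side, 48 without drug-loaded MNs replicate 1 and 75 without replicate 2; the lone library then takes its spread from the other group. Where the count was 0, between 725 and 1048 genes had an unadjusted p under 0.05 in limma. Of the genes with an unadjusted p under 0.05, 83.9% were higher as reported, and quantile normalization gave 59.0% and median ratio scaling 64.1%; the median over all genes was -0.01 under median ratio scaling in place of 0.12. The cause was not tested.

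A block on the replicate number gave 241 calls, and LYVE1 passed (log2 fold change 1.22, limma adjusted p 0.0451; range over alternatives 0.0451 to 0.832), while PROX1 (adjusted p 0.0602) and RELN (adjusted p 0.229) did not. The libraries share only a number. Deviations from group means correlated at 0.222 over tested genes between the replicate 1 libraries. With 2 libraries per group, those of replicate 2 only mirror them, so this cannot establish a pairing.

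LYVE1 (0.78 to 1.47), PROX1 (0.52 to 1.79) and RELN (0.36 to 1.43) kept a log2 fold change above 0 in every alternative run. MMRN1 (1.43 to 2.21) did so too, but it was selected for its rise in these same libraries, so this is no support. At a minimum mean of 5 units PROX1 dropped out. The groups of LYVE1, PROX1 and RELN, and of the selected MMRN1, stayed apart under median ratio and quantile scaling. The median of LYVE1, PROX1 and RELN (1.19) was 0.57 with a pseudocount of 5, which shrinks low genes by construction, and 0.77 to 1.425 with 1 library left out. STAB2 was -0.12 relative to the pan-endothelial sum, where it had been 0.16. That ratio was taken without adding 1 to the values, so the scale differs as well as the denominator. Medians of lists under other scalings or without 1 library were added after seeing the data. The pan-endothelial median (0.06) was -0.073 under median ratio scaling, -0.14 under quantile normalization, and from -0.027 (without drug-loaded MNs replicate 2) to 0.23 with 1 library left out. The blood endothelial median (0.16) was -0.052 under quantile normalization, and from -0.18 (without the same library) to 0.28 with 1 left out. The median of other lymphatic markers with PKHD1L1 included (0.79) stayed between 0.60 and 0.90. These scalings and removals were not run with PKHD1L1 left out. What depth limits was not measurable from values without counts.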
